A study of Mus musculus with 4 samples.

Results

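The 10 genes examined here encode heat shock chaperones and were taken by symbol from the 31053 genes counted in each of 4 libraries. All 10 were present. They were divided by textbook knowledge into 6 genes whose transcription rises under stress (Hspa1a, Hspa1b, Hsp90aa1, Dnajb1, Hsph1 and Hspb1, here called inducible) and 4 that cells express throughout (Hspa8, Hsp90ab1, Dnaja1 and Hspe1, here called constitutive). Of these, 9 encode proteins of the cytosol and nucleus, whereas Hspe1 encodes the mitochondrial co-chaperonin HSP10. Each library was made from the whole brain of a male C57BL/6J mouse aged 90 postnatal days (P90). All brains were digested with enzymes. For 2 mice, actinomycin D and triptolide, which block transcription, were in the perfusion, dissection and digestion buffers, and anisomycin, which blocks translation, was in the last pair of these. The other 2 mice received none of the 3 agents. The effects of the 3 agents cannot be told apart in this design. Every mouse gave 1 library, and a single batch is given for all 4. A comparison between the groups asks which chaperone RNAs differed between tissue taken apart without and with the 3 agents.

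Chaperones of the HSP70 family bind unfolded stretches of other proteins in a cycle driven by ATP. J-domain proteins such as DNAJB1 and DNAJA1 bring clients to them, and HSPH1 (HSP110) releases the bound nucleotide. HSP90 proteins act later, on nearly folded clients such as kinases and steroid receptors, and the small heat shock protein HSPB1 (HSP27) holds unfolded proteins until the others act. Heat, proteotoxic stress and inflammation activate the transcription factor HSF1, which binds repeats of the unit GAA in alternating orientation. Its best known targets in the brain and elsewhere are Hspa1a and Hspa1b, while Hspa8 and Hsp90ab1 serve the same protein families in unstressed cells.

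After removal of poor barcodes and doublets, 9861 of 12487 barcodes remained, 2207 and 2755 without inhibitors and 2089 and 2810 with them, with a median of 1440 to 1686 unique molecular identifiers (UMIs, which mark single RNA molecules) per cell in the 4 libraries. Clusters were called after the markers they expressed, hence "microglia-like". Levels are given in CPM after TMM normalization, always in the order replicate 1, replicate 2. CPM are the UMIs of a gene in all cells of a class from 1 mouse per 1000000 UMIs of the genes tested in that class. These genes differed between classes (8775 in microglia-like, 4128 in ependymal-like and 958 in macrophage/monocyte-like cells). The scale is therefore not the same in each class, and comparisons of levels between classes are approximate. Sums of markers and values of untested classes are by total UMIs. UMIs were read at the 3′ end and are not divided by gene length, so levels are compared between classes and mice, not between genes. Of the 16 groups of cells, 10 held at least 20 cells of every mouse and were tested: macrophage/monocyte-like (163 cells), ependymal-like (185), microglia-like (3262), neuron-like (311), mural-like (337), astrocyte-like (1147), endothelial-like (1684), choroid plexus-like (619) and oligodendrocyte-like cells (892), and a cluster of 748 cells with astrocyte markers that also held a precursor marker among its top genes, here called the Grin2c cluster. Olfactory ensheathing-like cells came only from replicate 1 of either group. Between libraries, 67 cell barcodes were shared, 42 of them among kept cells. The summed erythrocyte markers were higher without inhibitors in microglia-like sums (515 and 766 CPM against 154 and 278) and macrophage/monocyte markers lower (354 and 439 against 466 and 729 CPM), and their part in the results was not tested.

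The genes lie on 7 chromosomes. In GENCODE M21 coordinates (GRCm38, the same build as mm10) Hspa1a spans chr17:34969190-34972156 and its neighbour Hspa1b chr17:34956436-34959238, both on the minus strand. Of all stretches of 98 bases, the length of the cDNA read, in the Hspa1a transcript, 47.5% also occur in that of Hspa1b, but 0 of the 403 in its last 500 bases do. Reads from shared stretches cannot be assigned to either gene, so the division of the pair is uncertain for reads that lie outside those last bases. RefSeq promoter sequences (GRCm38.p6, 250 bases before to 50 after the start site) were at hand for 7 of the 10 genes. The letters GAANNTTC or TTCNNGAA, which on either strand make up 2 adjoining HSF1 units, occur in the 150 bases before the start in 7.73% of all 32851 promoters. A run of 3 units, in which either of these is followed by 2 free bases and a further unit in the opposite orientation, occurs in 0.268%. The following 150 bases before the start are shown 5′ to 3′ to set the promoter of Hspa1a beside those of 4 genes that did not pass in the same cells below, and capitals mark the 2-unit matches.
Hspa1a, chr17:34972157-34972306, minus strand: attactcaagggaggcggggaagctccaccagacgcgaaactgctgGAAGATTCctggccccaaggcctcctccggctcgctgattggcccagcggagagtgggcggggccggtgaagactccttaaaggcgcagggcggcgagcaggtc
Hspb1, chr5:135887769-135887918, plus strand: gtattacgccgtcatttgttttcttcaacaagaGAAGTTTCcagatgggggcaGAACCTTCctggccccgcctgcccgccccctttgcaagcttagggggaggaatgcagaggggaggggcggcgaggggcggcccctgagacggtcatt
Hsph1, chr5:149636316-149636465, minus strand: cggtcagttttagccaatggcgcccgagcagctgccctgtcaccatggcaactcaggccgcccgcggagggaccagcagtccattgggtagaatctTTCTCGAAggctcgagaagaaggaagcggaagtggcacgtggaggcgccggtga
Dnajb1, chr8:83608025-83608174, plus strand: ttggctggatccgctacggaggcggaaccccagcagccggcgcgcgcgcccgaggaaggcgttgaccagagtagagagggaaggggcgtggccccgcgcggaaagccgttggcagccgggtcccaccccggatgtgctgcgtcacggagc
Hspe1, chr1:55087998-55088147, plus strand: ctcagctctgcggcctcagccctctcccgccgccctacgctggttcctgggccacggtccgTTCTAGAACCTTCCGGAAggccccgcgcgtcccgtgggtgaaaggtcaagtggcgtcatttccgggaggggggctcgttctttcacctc
Hspa1a holds 1 match, which begins 104 bases before the start, and Hspa1b has the same letters there (296 of the 300 promoter bases of the pair are identical). Hspb1 holds 2 matches. Hsph1 holds 1, and a run of 3 units begins 16 bases after its start. The first promoter listed for Dnajb1 holds none in this window, and Hspe1 holds 3 that overlap and form 2 runs of 3 units. A match describes the letters and not a bound site.

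Ependymal-like cells, the ciliated lining of the ventricles, had the highest mean level over the 4 mice of 8 of the 10 genes. Hsp90aa1, the inducible HSP90, stood at 5793 and 9507 CPM there without inhibitors and at 6099 and 6738 with them. The next class, oligodendrocyte-like cells, lay at 922 to 1245 CPM in all 4 mice, so the ranges were far apart. Hsph1, the HSP110 nucleotide exchange factor, was at 689 to 874 CPM in ependymal-like cells. Neuron-like cells followed at 235 to 338 CPM, and microglia-like cells were lowest at 13.9 to 23.1. Dnajb1, the main HSP40 partner of inducible HSP70, showed the same class at the top (150 to 189 CPM). Macrophage/monocyte-like cells followed at 59.6 to 129 CPM, from 9 and 9 UMIs without and with inhibitors. By total UMIs, pooled over the mice of a group, they were at 49.3 and 72.0 CPM. On that scale endothelial-like cells were at 63.4 and 69.1 and microglia-like cells at 64.2 and 65.7 CPM, so the next class depended on the scale. Hspa1b was at 57.9 to 73.6 CPM in ependymal-like cells of all 4 mice, with and without inhibitors, and no other class reached 57.9. These levels rested on 21 UMIs without and 25 with inhibitors. By total UMIs, pooled over the mice of a group, they were 52.8 and 59.0 CPM. On that scale Hspa1b was at 36.1 and 1.32 CPM in microglia-like cells. In macrophage/monocyte-like cells it was at 32.8 and 0 CPM, from 6 and 0 UMIs. Hsp90ab1 (3203 to 5113 CPM), Dnaja1 (530 to 1135) and Hspe1 (735 to 1883) were also highest in ependymal-like cells with ranges apart from the next class. The range of Hspa8 (1992 to 3718) overlapped that of macrophage/monocyte-like cells (1744 to 2675). By total UMIs, pooled over the mice of a group, Hspa8 was at 2598 and 1986 CPM in ependymal-like cells without and with inhibitors. It was at 1659 and 1465 CPM in macrophage/monocyte-like cells. On that scale Dnaja1 was at 767 and 486 CPM in ependymal-like and at 455 and 478 CPM in endothelial-like cells.

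Hspb1, the small heat shock protein, had another distribution, with its highest levels in cells of the vessel wall. It was at 1114 and 1557 CPM without and at 1304 and 1175 CPM with inhibitors in endothelial-like cells. Mural-like cells, the pericytes and smooth muscle of vessels, had 928 to 1175 CPM, which overlapped the endothelial range. Ependymal-like cells followed at 227 to 304 and choroid plexus-like cells at 109 to 154 CPM, and the other 6 groups had means from 10.5 to 29.1 CPM. Among classes too small to test, pooled over both mice of a group, Hspb1 was at 365 and 344 CPM in fibroblast-like and at 520 and 715 CPM in erythrocyte-like cells without and with inhibitors. Hspa1a had no class clearly on top once inhibitors were present. With them its highest means were in mural-like (56.5 and 79.6 CPM) and ependymal-like cells (51.5 and 80.3 CPM), and microglia-like cells were at 4.81 and 4.12 CPM.

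**Figure D1:**
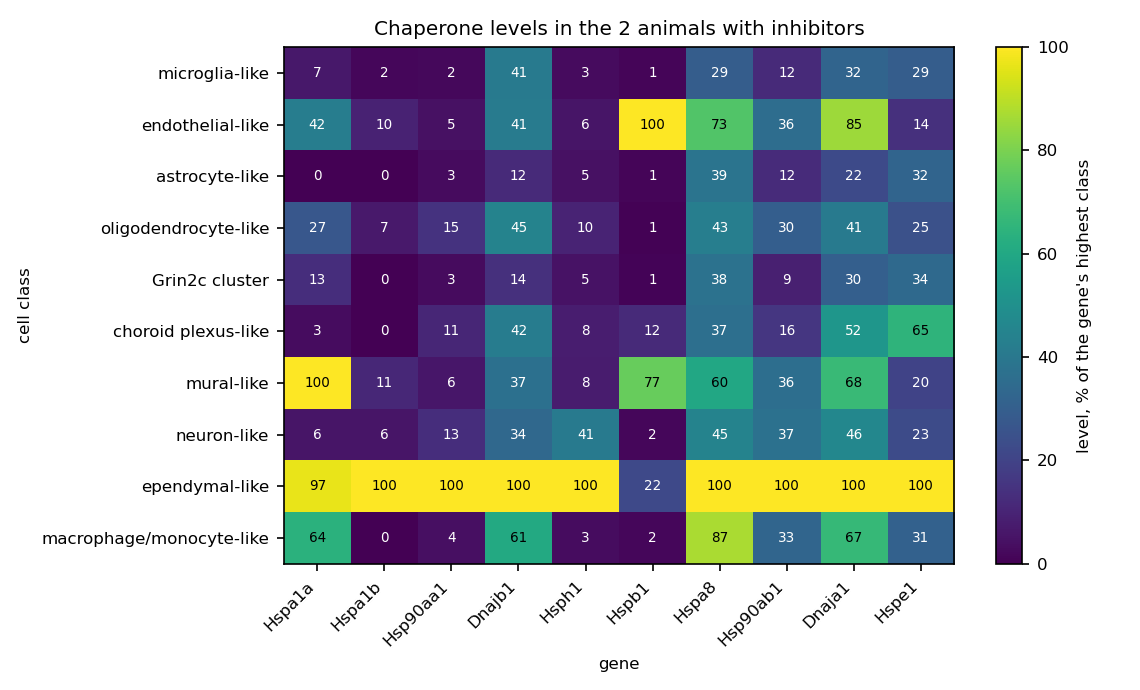
Mean level over the 2 mice with inhibitors of each gene (columns) in each cell class (rows), as a percentage of the gene's highest class, with the number in each field. The ependymal-like row holds the maximum of every gene but Hspa1a and Hspb1, and Hspb1 peaks in the endothelial-like row with mural-like cells next.

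In microglia-like cells, the brain's resident macrophages, 3 of the 10 genes were higher without inhibitors: Hspa1a, Hspa1b and Hsp90aa1. Hspa1a was at 340 and 231 CPM (367 and 288 UMIs) without inhibitors and at 4.81 and 4.12 CPM (5 and 5 UMIs) with them, so the groups were far apart. The means were 285 ± 76.8 against 4.46 ± 0.484 CPM (SD, n = 2 each), and the log2 fold change was 5.96 (SE 0.26, edgeR adjusted p = 1.66e-21). Hspa1b was at 36.1 and 37.7 CPM against 0 and 2.47. Its 86 UMIs without and 3 with inhibitors give a ratio of 27.3 with a 95% interval of 9.03 to 135 that covers counting error only, and the edgeR log2 fold change was 4.69 (SE 0.51, adjusted p = 7.47e-13). It passed with each mouse left out, at 3.85 without replicate 1 with inhibitors and 8.38 without replicate 2 with inhibitors, which leaves a group at 0, so its size is not well determined. Hsp90aa1 was at 281 and 232 CPM against 155 and 123, and its edgeR log2 fold change was 0.89 (SE 0.12, adjusted p = 2.34e-08). Of 8775 genes tested in these cells, 0.433% passed in this direction and 0.0228% in the other, at an adjusted p under 0.05 and a log2 fold change over 0.58. Hspa1a is on a list that the study chose on these samples, so its direction there is not independent evidence.

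The remaining 7 genes did not pass in microglia-like cells. Hspa8, the constitutive HSP70, was at 818 and 971 CPM without and 739 and 625 with inhibitors. These values did not overlap and its adjusted p was 0.0192, but the log2 fold change of 0.40 (SE 0.10) was under the size limit. Hsp90ab1, the constitutive HSP90, was at 475 and 572 against 406 and 414 CPM, and its log2 fold change was 0.36 (SE 0.10, edgeR adjusted p = 0.0979). Dnajb1 had nearly the same values in both groups, 75.9 and 57.0 CPM without and 75.9 and 57.7 with inhibitors, and a log2 fold change of -0.01 (SE 0.18). Hsph1 lay at 13.9 and 15.2 against 23.1 and 17.3 CPM, with a log2 fold change of -0.45 (SE 0.34). Hspb1 was at 13.9 and 28.9 against 10.6 and 24.7 CPM (log2 fold change 0.27, SE 0.34). Dnaja1, a J-domain partner of HSC70, was at 158 and 180 against 187 and 176 CPM, and Hspe1 at 244 and 249.5 against 257.5 and 248 CPM. Adjusted p-values of these last 5 genes lay above 0.9. So Dnajb1, Hsph1 and Hspb1, which are counted among inducible chaperones, did not pass where Hspa1a was at 63.9 times its level with inhibitors.

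**Figure D2:**
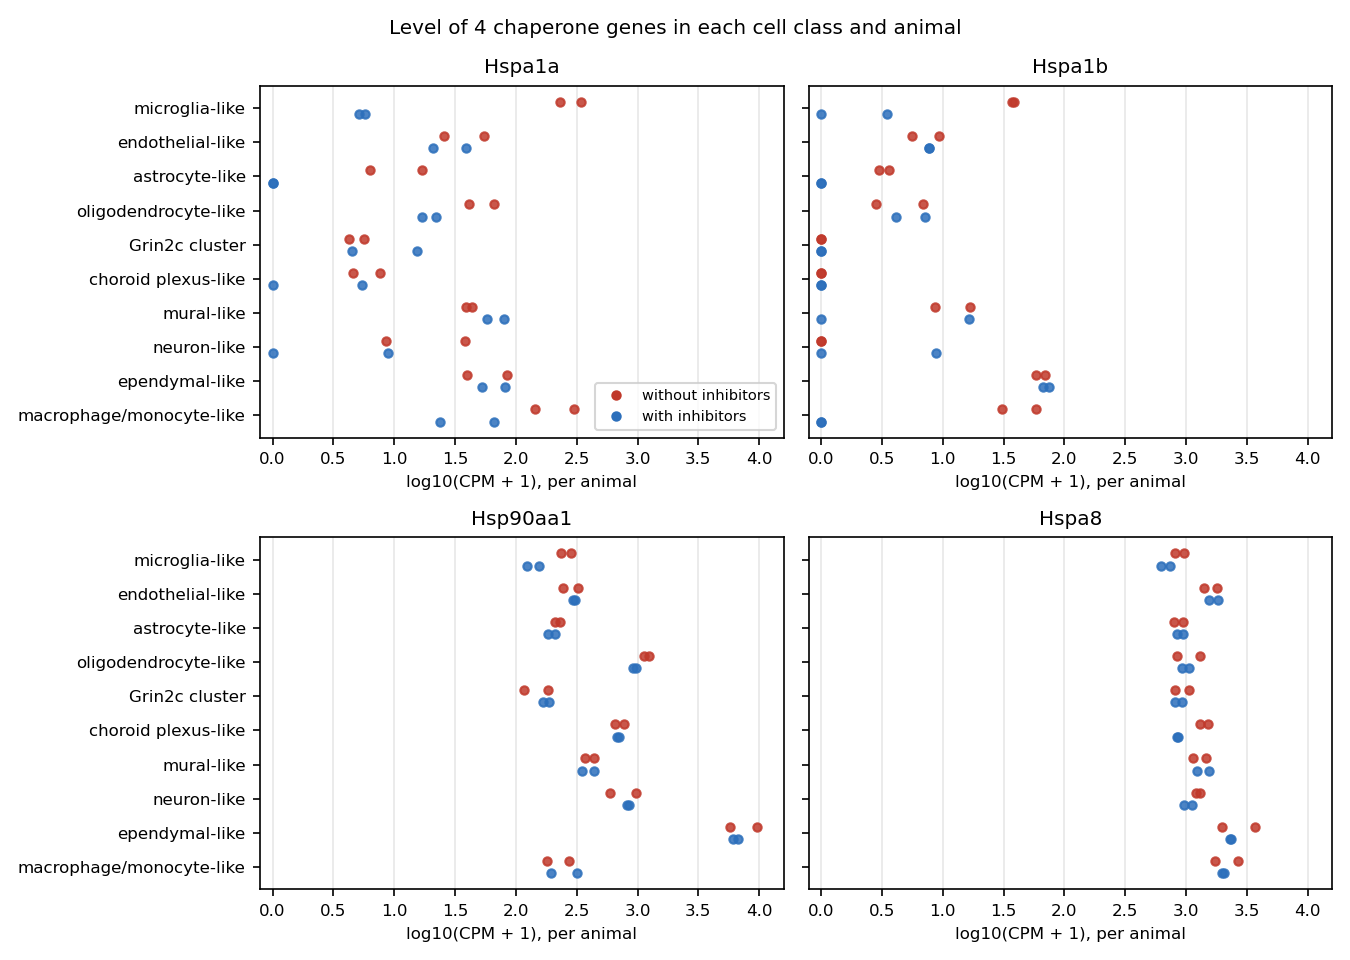
Level of Hspa1a, Hspa1b, Hsp90aa1 and Hspa8 as log10(CPM + 1) in each cell class, with 1 point per mouse, red without and blue with inhibitors. In microglia-like cells Hspa1a is at 231 to 340 CPM in the red points and below 5 CPM in the blue ones, whereas points of both colours mix in most other classes.

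Summed over the class, inducible genes were at 761 and 602 CPM without and 269 and 229 CPM with inhibitors in microglia-like cells, a log2 ratio of means of 1.45. The sum of the inducible genes other than Hspa1a and Hspa1b was at 385 and 333 against 264 and 223 CPM, a log2 ratio of 0.56. Most of that sum was Hsp90aa1, with 593 UMIs without and 310 with inhibitors. Dnajb1 had 153 and 149 UMIs, Hsph1 34 and 45, and Hspb1 51 and 41. Constitutive genes were at 1695 and 1973 against 1589 and 1463 CPM, a log2 ratio of 0.27. The 2 HSP90 genes did not keep their ratio: Hsp90aa1 per Hsp90ab1 was 0.593 and 0.405 without and 0.382 and 0.297 with inhibitors. Within the HSP70 genes, Hspa1a per Hspa8 was 0.415 and 0.238 against 0.00650 and 0.00660. The 22 other genes of the consensus activation list, which came from sorted microglia of other animals, were at 11755 and 7637 CPM without and 2360 and 2088 with inhibitors.

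Hspa1a was found in a minority of microglia-like cells. For a comparison at equal depth, 1000 UMIs were drawn from each cell, and cells with fewer were not used. Of the 653 and 746 microglia-like cells without inhibitors that were deep enough, 10.7% and 9.79% had a UMI of Hspa1a (exact 95% intervals 8.45% to 13.3% and 7.75% to 12.1%). With inhibitors this was 0.489% of 614 and 0.394% of 761 cells. Without thinning, the shares were 12.6% and 12.1% against 0.568% and 0.526%. Cells with a UMI held more than a single copy in many cases: 4.75% and 2.68% of all microglia-like cells without inhibitors held 3 or more, and the highest count in a thinned cell was 12 and 8. Among cells with at least 1 UMI the mean was 3.19 and 2.03 UMIs. With inhibitors no thinned cell held 3.

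Free RNA can give a cell a UMI of a gene it does not express, but its amount was not estimated here. Astrocyte-like cells were taken for comparison. There, 0.427% and 1.00% of thinned cells had a UMI of Hspa1a without inhibitors, and 0% of 171 and 225 cells with them. Median depths before thinning were 1271 to 1469 UMIs in microglia-like and 1289 to 1462 in astrocyte-like cells. With inhibitors, the shares in microglia-like cells rested on 3 cells of each mouse, and their exact intervals (0.101% to 1.42% and 0.0814% to 1.15%) overlap those of astrocyte-like cells, which reach 2.13% and 1.63%. Other classes held Hspa1a with inhibitors too: 8.93% and 9.09% of mural-like cells, against 2.27% and 3.57% without, and 1.81% and 3.85% of endothelial-like cells, against 6.06% and 2.09% without. Depth and mitochondrial share did not part microglia-like cells with Hspa1a from those without: the median mitochondrial shares were 3.89% and 4.19% with, and 3.92% and 4.44% without, and median UMIs before thinning 1592 and 1466 against 1514 and 1494.

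**Figure D3:**
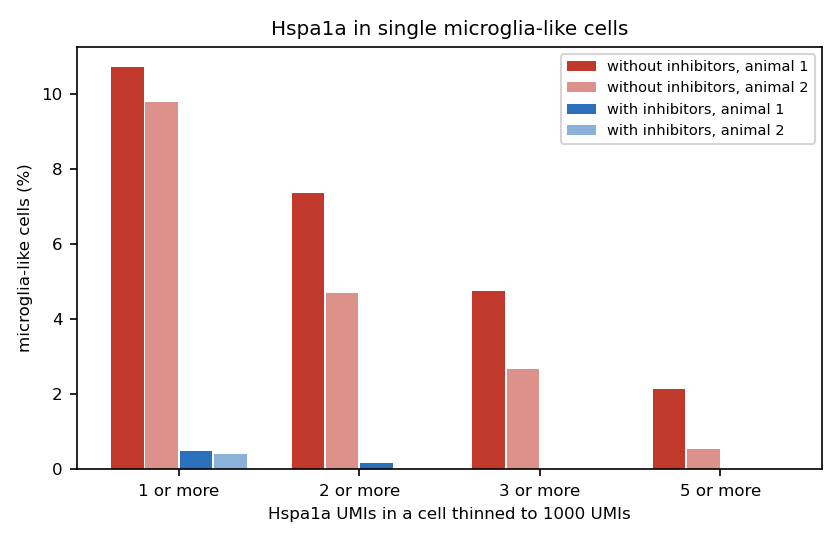
Percentage of microglia-like cells, thinned to 1000 UMIs each, that held at least 1, 2, 3 or 5 UMIs of Hspa1a, with 1 bar per mouse (red without, blue with inhibitors). About 1 cell in 10 without inhibitors held Hspa1a, and no cell with inhibitors held 3 or more.

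Microglia-like cells that held Hspa1a also more often held Hspa1b and both HSP90 genes. These are counts within the same cells of each mouse without inhibitors, so they are given without a test. Hspa1b was seen in 7.14% and 13.7% of the 70 and 73 cells with Hspa1a and in 2.06% and 1.93% of the 583 and 673 cells without it. For Hsp90aa1 the shares were 31.4% and 35.6% against 17.8% and 17.2%. For Hsp90ab1 they were 51.4% and 45.2% against 30.02% and 39.8%, and for Hspa8 58.6% and 61.6% against 50.8% and 57.8%. Dnajb1 was seen in 10.0% and 8.22% against 6.86% and 6.09%, a difference of a few cells. Hspe1 had a mean of 0.243 and 0.260 UMIs per cell against 0.242 and 0.267, and Hsph1 was seen in 1.43% and 1.37% against 1.54% and 1.78%. Of genes outside the chaperones, Jun, a subunit of the transcription factor AP-1, was seen in 75.7% and 53.4% against 42.9% and 33.1%. Fos, its partner, was seen in 40.0% and 19.2% against 15.95% and 11.6%. Junb, another AP-1 gene, had a lower mean in cells with Hspa1a, 1.26 and 0.726 UMIs against 1.38 and 1.07.

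**Figure D4:**
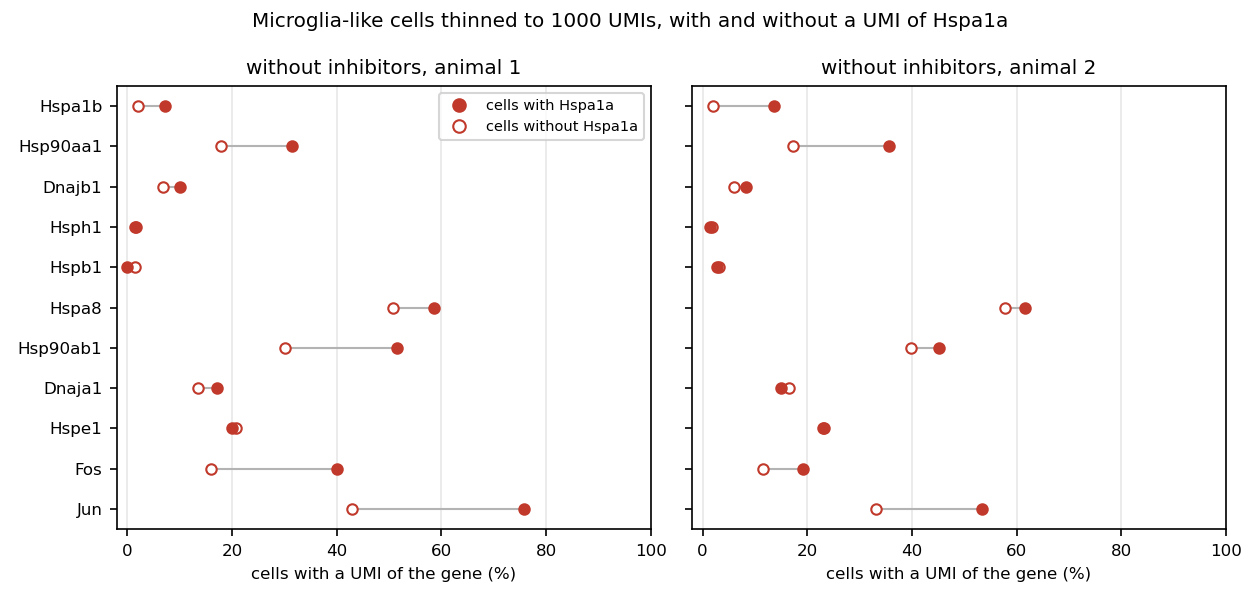
Percentage of microglia-like cells with a UMI of each gene (rows) among cells with Hspa1a (filled) and without it (open), at 1000 UMIs per cell, in each of the 2 mice without inhibitors (panels). Hspa1b, Hsp90aa1, Hsp90ab1, Jun and Fos lie further right in cells with Hspa1a in both mice, and Hspe1 and Hsph1 do not.

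Hspa1a was spread over the 3 largest microglia-like clusters, which were made without the stress and activation genes. By total UMIs, the largest cluster had 345 and 216 CPM without inhibitors, the next 279 and 210, and the third 380 and 301. With inhibitors these 3 clusters had 0 to 6.88 CPM. Since those genes were left out, this spread cannot show whether Hspa1a goes with an activated group of cells. With all genes kept in the clustering, a cluster of 486 microglia-like cells had Fos, Jun and Egr1 among its top genes. It held 255 and 209 cells without and 10 and 12 with inhibitors, and its level of Hspa1a was not determined. A cluster of 26 cells, 22 of them from replicate 2 with inhibitors, was left out in an alternative chosen after seeing the data, and the 3 calls in microglia-like cells remained.

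Of the classes in which Hspa1a was tested, oligodendrocyte-like cells, which make myelin, were the only other in which it passed. Its counts were too low for the test in astrocyte-like, choroid plexus-like, neuron-like and macrophage/monocyte-like cells and the Grin2c cluster. In oligodendrocyte-like cells Hspa1a was at 40.0 and 65.1 CPM (27 and 36 UMIs) without inhibitors. With them it was at 15.9 and 21.1 CPM (10 and 17 UMIs), so the groups did not overlap. The log2 fold change was 1.45 (SE 0.34, edgeR adjusted p = 0.0298), and of 6526 genes tested 0.184% were called in this direction and 0.0153% in the other. Microglial markers in these sums were at 0.728% to 0.979% of their microglia-like level, and RNA in that proportion would carry 3.15 and 2.00 CPM of Hspa1a without inhibitors. Erythrocyte markers were also higher without inhibitors here (365 and 616 against 147 and 209 CPM), and their part was not tested. The call rested on few UMIs: it was lost without replicate 2 of the mice without inhibitors (adjusted p = 0.27), without replicate 1 with inhibitors (0.136) and without replicate 2 with inhibitors (0.0739). It was also lost with DESeq2 (adjusted p above 0.99). Hsp90aa1 (1121 and 1245 against 973 and 922 CPM, log2 fold change 0.32, SE 0.10, adjusted p = 0.169) and Hsp90ab1 (1217 and 1372 against 978 and 1073 CPM, log2 fold change 0.33, SE 0.10, adjusted p = 0.14) did not overlap between groups and did not pass. Hspa1a was found in 3.50% and 7.56% of thinned cells without inhibitors and in 2.55% and 2.56% with them.

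Choroid plexus-like cells, the epithelium that makes cerebrospinal fluid, showed a different member. Hspa8 was at 1304 and 1514 CPM without and 857 and 840 with inhibitors, and its log2 fold change was 0.73 (SE 0.10, edgeR adjusted p = 8.21e-06). Here 4.17% of 4655 genes passed in the same direction and 0.881% in the other, far more than in any other class. Hsp90ab1 was at 713 and 794 against 553 and 523 CPM (adjusted p = 0.00361), with a log2 fold change of 0.48 (SE 0.11) that was under the size limit. Of the inducible genes, Hsp90aa1 was at 654 and 773 against 679 and 699 CPM, and Hspa1b had no UMI in any mouse. Hspa1a was at 3.58 and 6.69 against 0 and 4.40 CPM, from 7 against 1 UMIs. Hsph1 had a log2 fold change of 0.47 (SE 0.29), near that of Hsp90ab1, and Dnajb1 -0.38 (SE 0.30) and Hspb1 -0.22 (SE 0.21). Among the constitutive genes Dnaja1 had -0.03 (SE 0.16) and Hspe1 0.04 (SE 0.12). None of these passed. Summed, the constitutive genes were at 2770 and 3281 CPM without and 2297 and 2190 with inhibitors, a log2 ratio of 0.43. The inducible genes were at 888 and 1056 against 941 and 985 CPM (log2 ratio 0.01), which overlapped. Within the constitutive genes, Hspa8 and Hsp90ab1 were higher without inhibitors, whereas Dnaja1 and Hspe1 hardly differed. Hsp90aa1 per Hsp90ab1 was thus lower without inhibitors here (0.917 and 0.973 against 1.23 and 1.34), the opposite order to microglia-like cells. It was also lower without overlap in endothelial-like cells (0.213 and 0.211 against 0.247 and 0.246) and the Grin2c cluster (0.443 and 0.484 against 0.566 and 0.589). Astrocyte-like cells had the microglia-like order (0.516 and 0.665 against 0.504 and 0.442), and the groups overlapped in the other classes.

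The depth and makeup of the choroid plexus-like cells also differed between the groups. Median UMIs per cell were 2736 and 2378 without and 1931 and 1340 with inhibitors, and Ttr, the transthyretin gene that this epithelium expresses above all others, took 34.6% and 26.3% against 21.6% and 20.4% of UMIs. Erythrocyte markers were at 379 and 538 against 161 and 260 CPM and ependymal markers at 606 and 688 against 949 and 887 CPM, and their part in the calls of this class was not tested. Scaling by total UMIs in place of TMM lowered the median log2 ratio of all genes tested by 0.17, and gave 1090 and 1448 against 871 and 843 CPM of Hspa8, a log2 ratio of 0.57, which is under the size limit. In cells thinned to 1000 UMIs, the mean count of Hspa8 was 0.925 and 1.46 against 0.708 and 0.841. Without a cluster of 38 very deep cells (an alternative chosen after seeing the data) Hspa8 had a log2 fold change of 0.87 and Hsp90ab1 passed at 0.60.

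**Figure D5:**
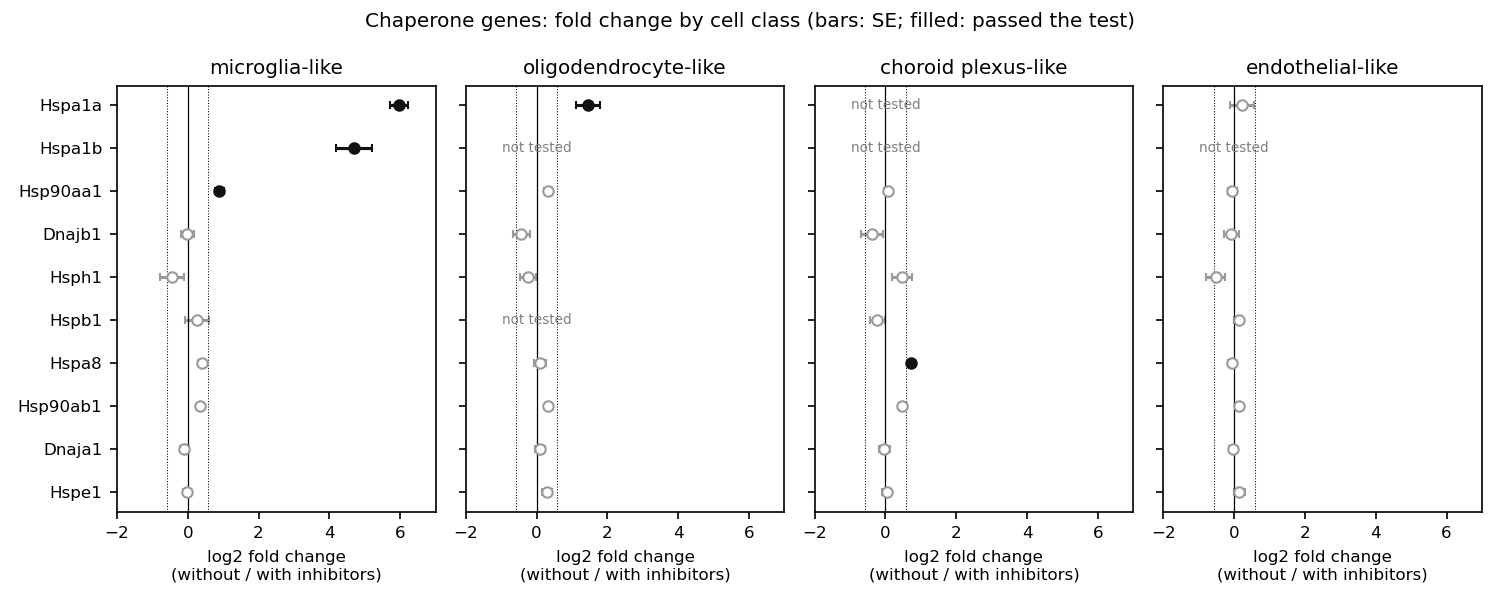
Log2 fold change, without over with inhibitors, of each gene in 4 cell classes, with the SE as bars. Filled points passed the test, and dotted lines mark the size limit of 0.58. Hspa1a, Hspa1b and Hsp90aa1 are filled in microglia-like cells, Hspa1a in oligodendrocyte-like and Hspa8 in choroid plexus-like cells, and no gene is filled in endothelial-like cells.

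No member passed with edgeR in the other 7 groups of cells, but not every member had enough UMIs to be tested. Of these groups, Hspa1a was tested only in endothelial-like, mural-like and ependymal-like cells, and Hspa1b only in ependymal-like cells. In endothelial-like cells 0 of 9 tested members had an unadjusted p under 0.05, against 470 of 8276 genes (0% called higher without inhibitors). Astrocyte-like cells had 1 of 6 members and 305 of 5818 genes under it (0.0344% called). The Grin2c cluster had 0 of 6 and 230 of 5029 (0.0199%). Mural-like cells had 0 of 9 and 317 of 4608 (0.109% called higher and 0.0651% lower). Neuron-like cells had 0 of 6 and 93 of 3416 (0.0293%). Ependymal-like cells had 1 of 10 and 168 of 4128 (0%), and macrophage/monocyte-like cells 1 of 5 and 56 of 958 (0.626%). DESeq2 called no member in these 7 groups either. Endothelial-like cells had Hspa1a at 53.7 and 24.8 against 20.02 and 37.7 CPM, which overlapped. Mural-like cells had it at 42.4 and 37.9 against 56.5 and 79.6 CPM, higher in both mice with inhibitors, and it did not pass. Among astrocyte-like cells Hspa1a had 2 and 8 UMIs without inhibitors and 0 with them. Set against 3 counts over the group with inhibitors, the 10 UMIs give a ratio of 2.40, which leaves out their own counting error. In replicate 2 without inhibitors 1 cell held 5 of them. The gene was too low to be tested, and microglial RNA at the level of its markers would carry 4.18 and 4.49 of the 4.90 and 14.9 CPM (by total UMIs).

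Ependymal-like values turned on 1 mouse. Replicate 2 without inhibitors had 3718 CPM of Hspa8, 5113 of Hsp90ab1, 1135 of Dnaja1 and 1883 of Hspe1, while the other 3 mice lay at 1992 to 2322, 3203 to 3432, 530 to 575 and 735 to 877. In the same sum of that mouse the erythrocyte markers were at 13473 CPM, against 329, 84.5 and 189 CPM in the others, and their part in these values was not tested. With all mice none of the 4 passed. Without replicate 1 of the mice without inhibitors, which leaves that high mouse alone in its group, these 4 passed, with log2 fold changes of 0.69, 0.59, 1.01 and 1.14. Without the high mouse itself, their log2 fold changes were -0.23, -0.10, -0.10 and -0.23.

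Macrophage/monocyte-like cells had Hspa1a at 298 and 144 CPM without and 64.5 and 22.6 with inhibitors. These values came from 20 and 10 against 3 and 1 UMIs, too few for the filter of the test. By total UMIs, pooled over the mice of a group, Hspa1a was at 164 against 32.0 CPM. The UMIs lay in 3 and 4 of 44 and 45 cells without, and 3 and 1 of 33 and 41 cells with inhibitors, so shares of cells overlapped (6.82% and 8.89% against 9.09% and 2.44%, unthinned). Dnaja1 was lower there without inhibitors, 104 and 115 against 237 and 521 CPM, with a log2 fold change of -1.76 and an edgeR adjusted p of 0.554. It passed without replicate 1 with inhibitors, which leaves replicate 2 alone in its group (log2 fold change -2.20). In all cells together, Hspa1a was at 100 and 72.2 against 13.2 and 19.9 CPM, and the log2 fold change of 2.36 (SE 0.23) just missed the threshold (edgeR adjusted p = 0.0588, where 0.0363% of 13780 genes were called). Hspa1b was at 13.3 and 12.8 against 5.34 and 5.68 CPM (log2 fold change 1.24, adjusted p = 0.189). With edgeR 0 members passed in all cells, and 2 of 10 had an unadjusted p under 0.05, against 923 of 13780 genes. DESeq2 called 1 member, Hspa1a. In bulk sums such as this, a change in the number of cells of a type and a change of RNA per cell cannot be told apart.

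Whether the inhibitor effect was larger in microglia-like cells than elsewhere was tested as an interaction, with the mouse as a block. For Hspa1a it was larger than in endothelial-like, oligodendrocyte-like, mural-like and ependymal-like cells and the Grin2c cluster, by 4.52 (SE 0.55, against oligodendrocyte-like) to 6.94 (SE 1.27, against the Grin2c cluster) on the log2 scale. For Hspa1b it was larger than in endothelial-like (4.81, SE 0.93), oligodendrocyte-like (4.88, SE 1.15) and ependymal-like cells (4.83, SE 0.79). Hsp90aa1 differed from endothelial-like (0.95, SE 0.16) and choroid plexus-like cells (0.81, SE 0.18) and the Grin2c cluster (1.07, SE 0.25). Members with a larger effect in microglia-like cells thus numbered 3 against endothelial-like cells (0.308% of all genes tested), 2 against oligodendrocyte-like (0.179%), 2 against the Grin2c cluster (0.126%), 1 against choroid plexus-like (0.204%), 1 against mural-like (0.161%) and 2 against ependymal-like cells (0.0703%). None had a smaller effect by this rule, where 0% to 0.526% of all genes did (endothelial-like 0.0199%, astrocyte-like 0.0202%, oligodendrocyte-like 0.0316%, Grin2c cluster 0.0105%, choroid plexus-like 0.526%, mural-like 0.0215%, macrophage/monocyte-like 0.0265%). The differences of Hsp90aa1 from choroid plexus-like cells and the Grin2c cluster held in 5 of 9 alternatives each, and that from endothelial-like cells in 7 of 9. That of Hspa1a from the Grin2c cluster, where it had 1 to 4 UMIs a mouse, held in 7 of 9. For Hspa1b the difference from oligodendrocyte-like cells, where it had 1 to 5 UMIs a mouse, held in 6 of 9, and those from endothelial-like and ependymal-like cells in 8 of 9 each. Against astrocyte-like (0.121%), neuron-like (0.0676%) and macrophage/monocyte-like cells (0.0133%) no member passed. Hspa1a cannot be judged against astrocyte-like cells, since they had 0 UMIs of it with inhibitors. Hspa1b cannot be judged against any of these classes, since each had 0 UMIs of it in a group. Differences of Hspa1a that did not pass were large but imprecise. They were 3.48 (SE 1.08) against macrophage/monocyte-like, 4.13 (SE 2.34) against neuron-like and 4.25 (SE 2.30) against choroid plexus-like cells. The difference of Hspa8 between microglia-like and choroid plexus-like cells was -0.36 (SE 0.16, adjusted p = 0.465).

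Of 62 further genes of the pathway on a list drawn up from textbook knowledge, 61 were present. They comprise heat shock factors, other HSP70 and J-domain genes, nucleotide exchange factors, HSP90 co-chaperones, small heat shock proteins, the cytosolic chaperonin, organelle relatives and other HSF1 targets. In microglia-like cells none of the 3 heat shock factors, 3 other HSP70 genes, 9 J-domain genes, 4 nucleotide exchange factors, 13 HSP90 co-chaperones, 2 small heat shock proteins, 8 chaperonin genes and 4 organelle relatives tested with edgeR passed. The median log2 fold change over all 49 tested genes of the list was 0.03, against -0.00 over all genes.

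In choroid plexus-like cells 5 of 46 tested pathway genes were higher without inhibitors and 1 was lower, where 4.17% of all genes tested were higher and 0.881% lower. Of the higher ones, 3 act in the endoplasmic reticulum: Hspa5, which encodes the chaperone BiP (528 and 722 against 373 and 387 CPM, log2 fold change 0.74), Hsp90b1, which encodes GRP94 (532 and 672 against 291 and 405 CPM, 0.85), and Dnajb9, a co-chaperone of BiP (111 and 139 against 71.6 and 52.8 CPM, 0.97). Cct4, a subunit of the cytosolic chaperonin, was at 161 and 145 against 71.6 and 83.6 CPM (log2 fold change 1.00). Hspd1, the mitochondrial chaperonin that works with HSPE1, was at 138 and 171 against 106 and 61.6 CPM (0.80). Bag1, a nucleotide exchange factor, was lower at 150 and 145 against 195 and 268 CPM (log2 fold change -0.60). Over 15 alternatives, Bag1 was called in 6 (log2 fold change -0.86 to -0.25), Dnajb9 in 10 and Hspd1 in 11 (0.56 to 1.35), Cct4 and Hspa5 in 14 each, and Hsp90b1 in 15. The values of depth and scaling given for Hspa8 in this class hold for these genes too. No pathway gene passed with edgeR in the other 8 groups of cells or in all cells, and DESeq2 called none. An unadjusted p under 0.05 was found for 6 of 59 tested in all cells, against 923 of 13780 genes. Endothelial-like cells had 6 of 53 (470 of 8276 genes), oligodendrocyte-like 6 of 47 (629 of 6526) and mural-like 5 of 43 (317 of 4608). Ependymal-like cells had 3 of 46 (168 of 4128), and macrophage/monocyte-like 2 of 10 (56 of 958). The Grin2c cluster had 2 of 45 (230 of 5029), astrocyte-like cells 1 of 45 (305 of 5818) and neuron-like 0 of 36 (93 of 3416).

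The genes whose level followed that of a member most closely over the 40 sums (10 groups of cells in 4 mice) were found by Pearson's correlation of log2(CPM + 1). The points share libraries and classes, so the values only describe. For Hspa1a these were Jund (0.78), Jun (0.78), Stard3nl (0.74), Atf3 (0.72) and H3f3b (0.72). For Hsp90aa1 they were Aebp1 (0.92), Paip2 (0.91), Nudc (0.90), Ccdc187 (0.88) and Kif6 (0.86). For Hspb1 they were Cavin1 (0.91), Paqr5, Arl4a, Nos3 and Msrb3 (0.89 to 0.90), and for Hspa8 Anxa1, Txn1, Cd24a, Cct7 and Anxa2 (0.77 to 0.79). Among the members themselves, Hsp90aa1 and Hsph1 were closest (0.82), then Hsp90aa1 and Hsp90ab1 (0.81), whereas Hspa1a had values of -0.03 with both Hsph1 and Hspe1.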

How the data were processed

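Whole brains of 4 mice were analysed by 10x Genomics 3′ v2 single-cell RNA sequencing. Per the labels and the study's methods, the authors aligned reads to mm10 and counted them with Cell Ranger 3.0.0, and deposited a matrix of raw UMI counts per library, which was used as it stands. The lowest count of a barcode was 500 UMIs, and 5134359 to 7529804 UMIs were deposited per library. Cells with at least 400 genes and at most 20% mitochondrial UMIs were kept, 206 doublets were removed by a score from simulated doublets, and cells were clustered (Leiden, resolution 1) without the stress and activation genes. Clusters were named from marker lists, and the rule for ties and the 2 clusters kept unnamed were settled with the clusters in view. Doublets and names therefore may differ from those of the study.

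Counts were summed per class and mouse and tested with edgeR 4.0.16 (R 4.3.3), by its quasi-likelihood test with robust dispersions, TMM and filterByExpr, and Benjamini-Hochberg adjustment over all genes tested. Calls needed an adjusted p below 0.05 together with a log2 fold change beyond 0.58 in either direction. The SE is the log2 fold change divided by the square root of F. Interactions had the mouse as a block. An exact permutation test of 2 against 2 mice cannot go below p = 0.333, so none was used. The test was checked on simulated data. Alternatives were DESeq2 1.42.0, RLE scaling, no filter, stricter cells, no doublet removal, other clusterings, the replicate number as a block, and leaving out each mouse. 3 more were chosen after seeing the data. The genes named are the members, the called pathway genes, and the 5 genes most correlated with Hspa1a, Hsp90aa1, Hspa8 and Hspb1. One called pathway gene is not reported here. Members and lists were chosen with earlier results of these data known. Intervals are exact and cover counting error only.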

Additional observations from a re-analysis of the deposited data

Results flagged for a closer look

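For 11 values, the change without against with inhibitors differed between microglia-like cells and another group of cells by a test of the difference itself (edgeR, class by group, with the mouse as a block). All are differences of log2 fold changes, and all were larger in microglia-like cells. For Hspa1a the difference was 5.65 against endothelial-like cells (SE 0.45, adjusted p = 2.50e-33), 4.52 against oligodendrocyte-like cells (SE 0.55, adjusted p = 1.72e-13) and 6.68 against mural-like cells (SE 0.58, adjusted p = 4.86e-27). It was 6.11 against ependymal-like cells (SE 0.63, adjusted p = 6.59e-18) and 6.94 against the Grin2c cluster (SE 1.27, adjusted p = 8.35e-05).

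For Hspa1b it was 4.81 against endothelial-like (SE 0.93, adjusted p = 0.000131), 4.88 against oligodendrocyte-like (SE 1.15, adjusted p = 0.0127) and 4.83 against ependymal-like cells (SE 0.79, adjusted p = 2.29e-06). For Hsp90aa1 it was 0.95 against endothelial-like cells (SE 0.16, adjusted p = 4.26e-06), 1.07 against the Grin2c cluster (SE 0.25, adjusted p = 0.0178) and 0.81 against choroid plexus-like cells (SE 0.18, adjusted p = 0.00383).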

How the results depend on the processing

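Hspa1a, Hspa1b and Hsp90aa1 in microglia-like cells and Hspa8 in choroid plexus-like cells passed in all 15 alternatives of the test. Total-UMI scaling, which was run without a test, put Hspa8 at a log2 ratio of 0.57, under the size limit. With 1 mouse left out, Hspa1b in microglia-like cells ran from 3.85 to 8.38. In all cells, members called numbered 0 at first, 2 without a filter on low counts, and 1 with non-robust dispersions, DESeq2, the replicate block, stricter cells, no doublet removal, the crossed replicate block and without the microglia-like cluster of mostly 1 mouse. In oligodendrocyte-like cells 0 were called with DESeq2, without doublet removal and with the crossed block. In choroid plexus-like cells 2 were called without the deepest cluster, and in macrophage/monocyte-like cells 1 with the replicate block. Pathway calls numbered 1 in oligodendrocyte-like cells with the replicate block and 3 in choroid plexus-like cells with DESeq2. Interaction calls fell to 0 for the Grin2c cluster with stricter cells and to 0 for choroid plexus-like cells without a filter. The cause of these changes was not tested. Equal replicate numbers do not pair the mice by any label (correlations of deviations from -0.17 to 0.07, 2 pairs), and the replicate block changed no other count of member or pathway calls by over 1.5 times.

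Leaving out 1 mouse gave 0 to 2 member calls in all cells, 0 to 1 in oligodendrocyte-like, 0 to 4 in ependymal-like and 0 to 1 in macrophage/monocyte-like cells. Pathway calls were 0 to 1 in all cells, 0 to 1 in oligodendrocyte-like, 2 to 7 in choroid plexus-like and 0 to 6 in ependymal-like cells. Interaction calls were 1 to 3 against endothelial-like, 1 to 2 against oligodendrocyte-like, 0 to 2 against the Grin2c cluster, 0 to 1 against choroid plexus-like, 1 to 2 against mural-like and 1 to 3 against ependymal-like cells.

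The log2 fold change of Dnajb1 in microglia-like cells turned to 0.0029 without a filter, 0.034 with stricter cells, 0.018 without doublet removal and 0.0092 without the single-mouse cluster, and ran from -0.21 to 0.20 with 1 mouse left out. With 1 mouse left out, that of Hspb1 there ran from -0.38 to 1.04 and that of Hspe1 from -0.059 to 0.00092. In ependymal-like cells that of Hspe1 ran from -0.23 to 1.14, Hspa8 from -0.23 to 0.69, Hsp90ab1 from -0.10 to 0.59 and Dnaja1 from -0.10 to 1.01.

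With stricter cells, the log2 ratio of summed inducible genes was 0.56 in astrocyte-like and 0.24 in macrophage/monocyte-like cells, and that of constitutive genes 0.10 in neuron-like cells. By total UMIs, it was -0.15 for inducible and 0.27 for constitutive genes in choroid plexus-like cells. With 1 mouse left out, the ratio of inducible genes ran from -0.039 to 0.36 in all cells, -0.15 to 0.25 in endothelial-like, 0.03 to 0.31 in astrocyte-like, 0.18 to 0.39 in oligodendrocyte-like, -0.65 to 0.081 in the Grin2c cluster, -0.12 to 0.13 in choroid plexus-like, -0.084 to 0.23 in mural-like, -0.38 to 0.069 in neuron-like, -0.13 to 0.51 in ependymal-like and 0.37 to 0.59 in macrophage/monocyte-like cells. That of constitutive genes ran from -0.071 to 0.34 in all cells, -0.15 to 0.17 in endothelial-like, 0.045 to 0.38 in oligodendrocyte-like, -0.16 to 0.24 in the Grin2c cluster, 0.30 to 0.55 in choroid plexus-like, -0.25 to 0.16 in mural-like and -0.15 to 0.73 in ependymal-like cells. The difference in the share of microglia-like cells with Hspa1a was 9.81 percentage points at 1000 UMIs, 7.39 at 500, 13.5 at 1500, 11.8 without thinning and 10.5 with stricter cells.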
